A study of Homo sapiens with 10 samples.

Results

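Cyclin-dependent kinase (CDK) inhibitor genes encode the proteins that hold the cell cycle by blocking the kinases that drive it. Members were the genes of the 2 known families, found by matching each Ensembl identifier of the count table to a gene symbol. The CIP/KIP family has 3 members, CDKN1A (p21), CDKN1B (p27) and CDKN1C (p57), and the INK4 family has 4, CDKN2A (p16 and p14ARF), CDKN2B (p15), CDKN2C (p18) and CDKN2D (p19). All 7 were found among 61587 genes listed, and all 7 were among the 19006 genes tested, which had at least 200 counts summed over the 10 samples. The rule is by name and uses no measured value, although it was set with earlier results of these data known.

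Bulk RNA-seq was performed on RPTEC/TERT1 cells, a human proximal tubular epithelial line immortalised with telomerase, to give an expression profile of senescent renal epithelium. The irradiated group was 5 samples exposed to 10 Gy of gamma rays from a caesium-137 source, and the control group was 5 samples taken to the irradiator without exposure (dose 0 Gy). RNA of both groups was collected on day 7, and both groups shared the same line, medium and plating. The cell line label of the samples carries a different number in each, and all were taken as RPTEC/TERT1, the line named in the methods. All 10 samples are then from 1 cell line, so that any property of its donor, and the telomerase, is common to both groups. Replicates are numbered 1 to 5 in each group, and nothing in the labels says whether they were separate cultures grown apart. The p-values below rest on the spread of differences between same-numbered control and irradiated samples, and this spread may therefore be partly technical.

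Depth was 78081911 to 131555873 counts per control sample and 66269311 to 101594948 counts per irradiated sample. Of 10 markers of proximal tubule and epithelium, 7 had at least 200 counts, and the epithelial genes PAX8, CDH1 and KRT18 had group means of 235.0 to 594.4 CPM (counts scaled to the normalised total of each library). The proximal tubule markers LRP2, HNF4A and SLC34A1 had 17, 12 and 86 counts over all 10 samples. In contrast, the proximal tubule markers ANPEP, GGT1 and CUBN were expressed. Their means were 247.8, 10.02 and 4.37 CPM in controls and 295.8, 12.5 and 4.76 CPM after irradiation, and none of them was called changed. Of the 7 markers tested, 0 were called higher and 2 lower. The lower ones were AQP1, with means of 1.82 CPM without and 1.19 CPM with irradiation, and CDH1, with 264.5 and 235.0 CPM. Of 10 markers of other cell types, 4 reached 200 counts (COL1A1, PECAM1, VWF and PTPRC), UMOD had 0 counts, and COL1A1 was the only one above 2 CPM, with means of 18.8 CPM without and 32.2 CPM with irradiation. Both COL1A1 and PECAM1 were called higher, the mean log2 CPM of the 4 genes was 0.91 to 1.13 in controls and 1.27 to 1.54 in irradiated samples, and the part of such cells in the results below was not tested.

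In the G1 phase, D-type cyclins with CDK4 or CDK6, and then cyclin E with CDK2, phosphorylate the retinoblastoma protein and release E2F transcription factors, which switch on the genes of DNA replication. INK4 proteins bind CDK4 and CDK6 and keep the D-type cyclins off them, whereas CIP/KIP proteins bind whole cyclin-CDK complexes, including those of CDK2. Lasting expression of p21 and p16 is a widely used mark of senescent cells, which remain alive but no longer divide.

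Sequence before the transcription start was examined because the members moved in opposite directions. RefSeq promoter entries on GRCh38.p14 matched 6 of the 7 members (all but CDKN1C), with 9 start sites in all, and 5 windows of 250 bases are printed here, 5′ to 3′ on the strand of the gene. They belong to the 3 members that were higher after irradiation and to CDKN2C, the member that fell most. The window of CDKN1A is chr6:36678464-36678713 (plus strand). The 2 starts of CDKN2A are chr9:21995325-21995574 and, on the same minus strand and closer to CDKN2A's end, chr9:21974858-21975107. CDKN2B is shown at chr9:22009306-22009555 (minus strand) and CDKN2C, at its start 2 of 3, at chr1:50968456-50968705 (plus strand). Capitals mark GGGCGG on either strand, the core of the GC box bound by SP1.
CDKN1A: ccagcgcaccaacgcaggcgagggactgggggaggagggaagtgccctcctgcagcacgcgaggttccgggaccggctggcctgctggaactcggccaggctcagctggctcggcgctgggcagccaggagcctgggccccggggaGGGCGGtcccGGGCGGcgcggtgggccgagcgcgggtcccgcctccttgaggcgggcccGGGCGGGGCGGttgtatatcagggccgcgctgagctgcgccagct
CDKN2A start 1: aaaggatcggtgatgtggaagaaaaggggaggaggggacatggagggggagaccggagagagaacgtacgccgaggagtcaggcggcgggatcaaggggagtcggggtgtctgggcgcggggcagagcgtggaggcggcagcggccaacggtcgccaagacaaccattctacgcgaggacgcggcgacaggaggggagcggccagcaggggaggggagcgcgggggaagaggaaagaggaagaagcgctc
CDKN2A start 2: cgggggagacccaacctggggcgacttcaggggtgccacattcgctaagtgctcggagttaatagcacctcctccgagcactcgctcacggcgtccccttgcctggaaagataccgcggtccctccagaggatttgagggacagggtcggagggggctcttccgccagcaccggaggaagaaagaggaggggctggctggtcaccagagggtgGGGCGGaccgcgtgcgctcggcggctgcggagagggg
CDKN2B: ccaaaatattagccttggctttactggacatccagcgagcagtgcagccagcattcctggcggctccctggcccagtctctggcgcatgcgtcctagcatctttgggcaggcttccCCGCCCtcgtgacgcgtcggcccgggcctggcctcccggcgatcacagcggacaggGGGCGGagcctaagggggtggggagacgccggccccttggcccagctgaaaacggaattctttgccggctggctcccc
CDKN2C start 2: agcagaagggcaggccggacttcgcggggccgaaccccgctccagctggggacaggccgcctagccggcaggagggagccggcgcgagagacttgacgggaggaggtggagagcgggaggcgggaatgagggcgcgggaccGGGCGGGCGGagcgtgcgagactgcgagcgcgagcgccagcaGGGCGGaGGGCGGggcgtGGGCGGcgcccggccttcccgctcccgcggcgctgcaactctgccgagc
GGGCGG was present in 7 of the 9 member windows and in 42.6% of 35116 RefSeq promoter windows of the same length. Counting overlapping matches apart, there were 4 before CDKN1A, 2 before CDKN2B, 5 before start 2 of CDKN2C, 1 before start 2 of CDKN2A and 0 before start 1 of CDKN2A. Starts 1 and 3 of CDKN2C, not printed, had 0 and 1. The share of G and C bases was 45.6% and 48.8% in those windows and 64.4% to 77.2% in the other member windows. Its median over all windows was 58%, and the part of base content in the GGGCGG counts was not tested. CCAAT, searched on both strands, was present in 3 of the 9 windows (CDKN1B, CDKN2C start 3 and CDKN2D) and in 32.0% of all windows. The E2F-type words TTTCCCGC, TTTGGCGC, TTTGGCGG and TTTCGCGC, the word TTTGAA found in promoters bound by the DREAM repressor, and TATAAA were in none of the 9, and each of them was in 0.439% to 13.3% of all windows. Windows of this length hold only the bases next to the start. Members that were higher and members that were lower both had GGGCGG, and these letters alone did not separate them.

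All 7 CDK inhibitor genes were called changed by irradiation (adjusted p under 0.05), with 3 higher (CDKN1A, CDKN2A and CDKN2B) and 4 lower (CDKN1B, CDKN1C, CDKN2C and CDKN2D). Among all genes tested, 46.6% were called changed, 23.9% higher and 22.7% lower. Each member moved in the same direction in 5 of 5 replicate pairs. The share of all genes that did so was not counted, and uncalled genes such as E2F4 and SP1 did so too. The irradiated and control values did not overlap for any of the 7 members, as was the case for 26.7% of all genes. Direction did not follow family. In the CIP/KIP family 1 of 3 was higher and 2 were lower, with a median log2 fold change of -1.04, and in the INK4 family 2 of 4 were higher and 2 were lower, with a median of 0.15. The median over all genes tested was -0.01. The test throughout is the quasi-likelihood test of edgeR with replicate number as a block, adjusted over all genes tested by Benjamini-Hochberg, and expression is CPM after TMM normalisation. In bulk samples, fewer cells of a type and less RNA per cell cannot be told apart, and this holds for every value below.

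**Figure D1:**
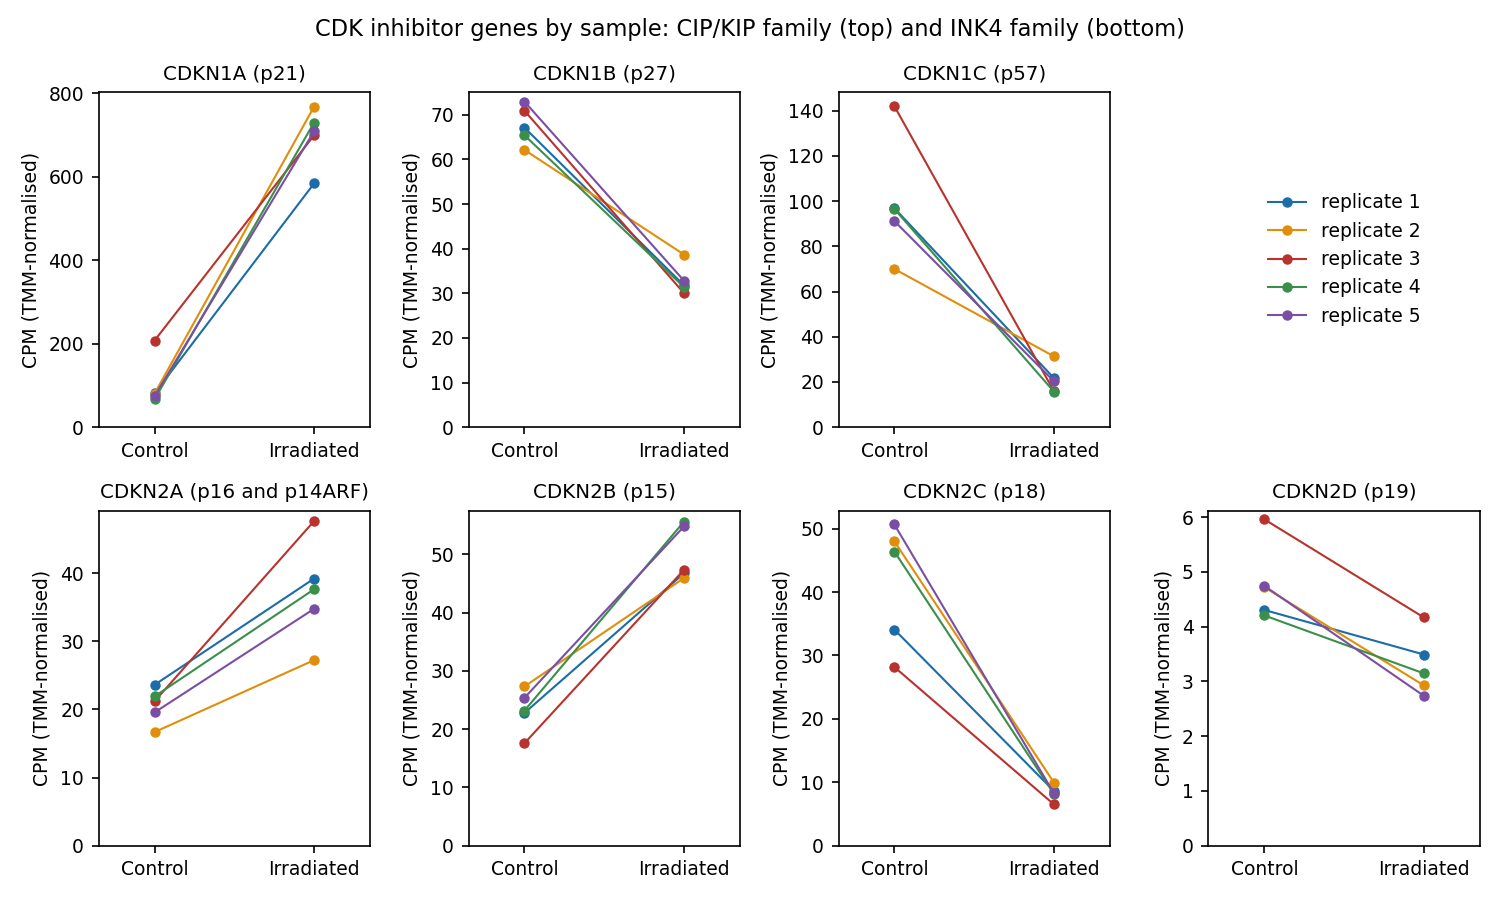
Expression of the 7 CDK inhibitor genes in each sample, in TMM-normalised CPM on axes that start at 0, with a line joining the control and irradiated sample of the same replicate number. All 5 lines run up for CDKN1A, CDKN2A and CDKN2B and down for CDKN1B, CDKN1C, CDKN2C and CDKN2D, and control replicate 3 (red) stands above the other controls for CDKN1A at 207.6 CPM.

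CDKN1A, on chromosome 6 from 36676460 to 36687337 (GRCh38, plus strand), encodes p21, the inhibitor of CDK2 complexes that is induced after DNA damage. Its expression in control replicates 1 to 5 was 80.9, 80.3, 207.6, 66.7 and 74.3 CPM, and in irradiated replicates 1 to 5 it was 584.4, 768.4, 699.8, 730.3 and 709.4 CPM. Every irradiated sample was far above every control, and control replicate 3 was the one control that stood apart from the others. The group means were 101.9 ± 59.3 and 698.5 ± 69.0 CPM (SD, n = 5 per group), with a log2 fold change of 2.92 (SE 0.24, adjusted p = 9.11e-05), or 7.59-fold. Pair by pair, the log2 ratio was 2.85, 3.26, 1.75, 3.45 and 3.26, and the smallest of them is that of replicate 3. Without control replicate 3 the log2 fold change was 3.21. Exons of the antisense gene DINOL lie over 4.87% of the CDKN1A exons, and without strand in the counting the reads there cannot be assigned.

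CDKN1B, on chromosome 12 from 12685498 to 12722369 (plus strand), encodes p27, a CDK2 inhibitor of quiescent cells whose protein level is set mainly by degradation. Control replicates 1 to 5 had 67.1, 62.1, 70.9, 65.4 and 73.0 CPM, and irradiated replicates 1 to 5 had 31.8, 38.7, 30.0, 31.4 and 32.8 CPM. The controls formed one narrow band and the irradiated samples a lower one, with replicate 2 the lowest control and the highest irradiated sample. CDKN1B fell from 67.7 ± 4.32 to 32.9 ± 3.36 CPM (SD, n = 5 per group), with a log2 fold change of -1.04 (SE 0.078, adjusted p = 6.36e-05). This is 2.06-fold lower, in the opposite direction to CDKN1A of the same family.

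CDKN1C, on chromosome 11 from 2883213 to 2885775 (minus strand), encodes p57, an inhibitor expressed from the maternal copy of an imprinted region and known for its part in the differentiation of renal cells. Expression was 96.8, 70.0, 141.9, 96.5 and 91.2 CPM in control replicates 1 to 5 and 21.7, 31.3, 15.9, 15.7 and 20.3 CPM in irradiated replicates 1 to 5. Control replicate 3 was the highest control and control replicate 2 the lowest, and no control came close to the irradiated samples. The means were 99.3 ± 26.3 and 20.97 ± 6.36 CPM (SD, n = 5 per group), with a log2 fold change of -2.25 (SE 0.25, adjusted p = 0.000342) and a 4.77-fold fall. The pairs spread widely, from a log2 ratio of -1.16 in replicate 2 to -3.16 in replicate 3, and the log2 fold change was -2.02 without control replicate 3.

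CDKN2A, on chromosome 9 from 21967752 to 21995301 (minus strand), encodes p16, which blocks CDK4 and CDK6, and from another first exon p14ARF, which binds the ubiquitin ligase MDM2. The counts are 1 value per gene and do not separate the 2 products. Control replicates 1 to 5 had 23.6, 16.7, 21.2, 21.9 and 19.6 CPM, and irradiated replicates 1 to 5 had 39.2, 27.2, 47.7, 37.6 and 34.8 CPM. Replicate 2 was the lowest sample of both groups, and its irradiated value was still above the highest control. The means were 20.6 ± 2.63 and 37.3 ± 7.39 CPM (SD, n = 5 per group), with a log2 fold change of 0.84 (SE 0.073, adjusted p = 0.000108), or 1.80-fold. Exons of CDKN2B-AS1 on the other strand cover 15.3% of the CDKN2A exons, at the end of the gene nearest its start 1. Protein-coding genes wholly under opposite-strand exons had 0 counts in 17 of 17 cases. Reads of the covered stretch were therefore probably counted for neither gene, so that CDKN2A may be undercounted there.

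CDKN2B, on chromosome 9 from 22002903 to 22009305 (minus strand), encodes p15, the INK4 protein that TGF-beta induces in epithelial cells. Expression was 22.8, 27.3, 17.6, 23.2 and 25.4 CPM in control replicates 1 to 5 and 46.8, 45.9, 47.3, 55.6 and 54.8 CPM in irradiated replicates 1 to 5. The irradiated samples lay close together, and the highest control was well below the lowest of them. CDKN2B was higher, from 23.2 ± 3.66 to 50.1 ± 4.70 CPM (SD, n = 5 per group), with a log2 fold change of 1.12 (SE 0.092, adjusted p = 8.64e-05), or 2.17-fold.

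CDKN2C, on chromosome 1 from 50960745 to 50974634 (plus strand), encodes p18, an INK4 protein known for its part in cell differentiation. Control replicates 1 to 5 had 34.1, 48.0, 28.2, 46.4 and 50.7 CPM, and irradiated replicates 1 to 5 had 8.62, 9.94, 6.50, 8.15 and 8.25 CPM. Control replicates 1 and 3 were lower than the other controls and the irradiated samples were nearly level. The means were 41.5 ± 9.78 and 8.30 ± 1.23 CPM (SD, n = 5 per group), with a log2 fold change of -2.30 (SE 0.099, adjusted p = 1.08e-05), so that CDKN2C was 4.92-fold lower and had the smallest adjusted p-value of the 7.

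CDKN2D, on chromosome 19 from 10566460 to 10569059 (minus strand), encodes p19, the INK4 protein that is normally highest in the S and G2 phases. Expression was low, at 4.31, 4.72, 5.96, 4.21 and 4.75 CPM in control replicates 1 to 5 and 3.49, 2.93, 4.17, 3.15 and 2.74 CPM in irradiated replicates 1 to 5. The highest irradiated sample, replicate 3, lay just under the lowest control, replicate 4. The means were 4.79 ± 0.70 and 3.29 ± 0.56 CPM (SD, n = 5 per group), with a log2 fold change of -0.54 (SE 0.097, adjusted p = 0.00297). The lowest CDKN2D count was 196, in irradiated replicate 2, fewer than the lowest count of any other member (602, of CDKN2C).

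**Figure D2:**
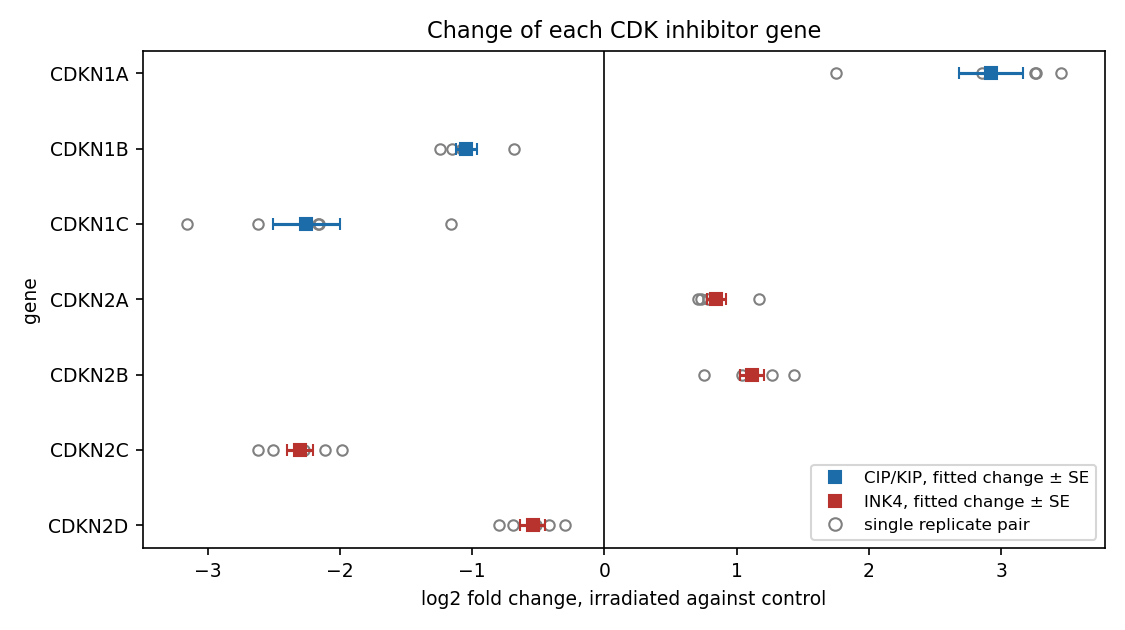
Log2 fold change of each CDK inhibitor gene, irradiated against control; squares are the fitted change with its standard error (blue, CIP/KIP; red, INK4) and open circles the 5 single pairs. Both families lie on both sides of 0, and CDKN1A and CDKN1C have the widest spread between pairs (1.75 to 3.45 and -3.16 to -1.16).

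Because counts rise with transcript length, levels of different members were compared as CPM per kilobase of merged exons. In controls CDKN1C was highest at 40.0 ± 10.6 CPM per kilobase (SD, n = 5), followed by CDKN1A at 34.0 ± 19.8, CDKN2C at 13.7 ± 3.24 and CDKN1B at 7.32 ± 0.47. CDKN2B, CDKN2A and CDKN2D came next at 5.81 ± 0.91, 5.30 ± 0.68 and 3.18 ± 0.46. CDKN1C and CDKN1A overlapped (28.2 to 57.2 against 22.3 to 69.3), as did CDKN2B and CDKN2A (4.39 to 6.83 against 4.29 to 6.08), so that the order within each of these pairs was not larger than the spread. CDKN1B was above CDKN2B in 4 of 5 controls.

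In irradiated samples CDKN1A was highest, at 233.1 ± 23.0 CPM per kilobase (SD, n = 5), and the next level was that of CDKN2B at 12.5 ± 1.18. CDKN2A and CDKN1C followed at 9.60 ± 1.90 and 8.46 ± 2.56, and CDKN1B, CDKN2C and CDKN2D were at 3.56 ± 0.36, 2.75 ± 0.41 and 2.19 ± 0.37. The ranges of CDKN2B, CDKN2A and CDKN1C overlapped in part (11.5 to 13.9, 7.01 to 12.3 and 6.33 to 12.6), those of CDKN1B and CDKN2C overlapped at their ends (3.24 to 4.18 against 2.15 to 3.30), and so did those of CDKN2C and CDKN2D. CDKN1A was above every other member in each of the 5 samples.

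CDKN1A made up 29.6% (22.8% to 44.04%) of the summed level of the 7 genes per kilobase in controls and 85.6% (83.3% to 86.5%) in irradiated samples. The CIP/KIP sum went from 81.4 ± 29.8 CPM per kilobase in controls to 245.2 ± 24.1 after irradiation (SD, n = 5 per group). The INK4 sum was 28.0 ± 3.39 and 27.1 ± 2.04 CPM per kilobase, and its range of 23.1 to 31.3 in controls covered the 23.7 to 29.0 of irradiated samples. The INK4 share of all 7 was 14.7% to 32.8% in controls and 7.99% to 11.5% in irradiated samples. Per kilobase of merged exons, CDKN2C was the largest INK4 level in 5 of 5 controls, and CDKN2B was the largest in 4 of 5 irradiated samples, with CDKN2A the largest in irradiated replicate 3.

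The direction of the INK4 sum, and which INK4 gene was largest, depended on the length used. With the longest transcript of each gene it was 43.2 CPM per kilobase in control and 53.6 in irradiated samples, and with the MANE Select transcript, the 1 reference transcript agreed by RefSeq and Ensembl for a gene, it was 72.1 and 61.8. CDKN2A has 3885 bases of merged exons but a MANE Select transcript of 978 bases, and for CDKN1B the lengths are 9255 and 2411, so their places in the order moved. CDKN2A was in place 6 of 7 in controls per merged exon, in place 5 per MANE Select transcript and in place 3 per longest transcript, and in irradiated samples it moved from place 3 to place 2 with both of the other lengths. Per longest transcript CDKN2A was the largest INK4 level in 4 of 5 controls, where CDKN2C was the largest in the other, and CDKN2C remained the largest in 5 of 5 controls per MANE Select transcript. In irradiated samples CDKN2A was the largest INK4 level in 5 of 5 with both of these lengths. CDKN1C was in place 1 in controls and CDKN1A in place 1 in irradiated samples with all 3 lengths.

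**Figure D3:**
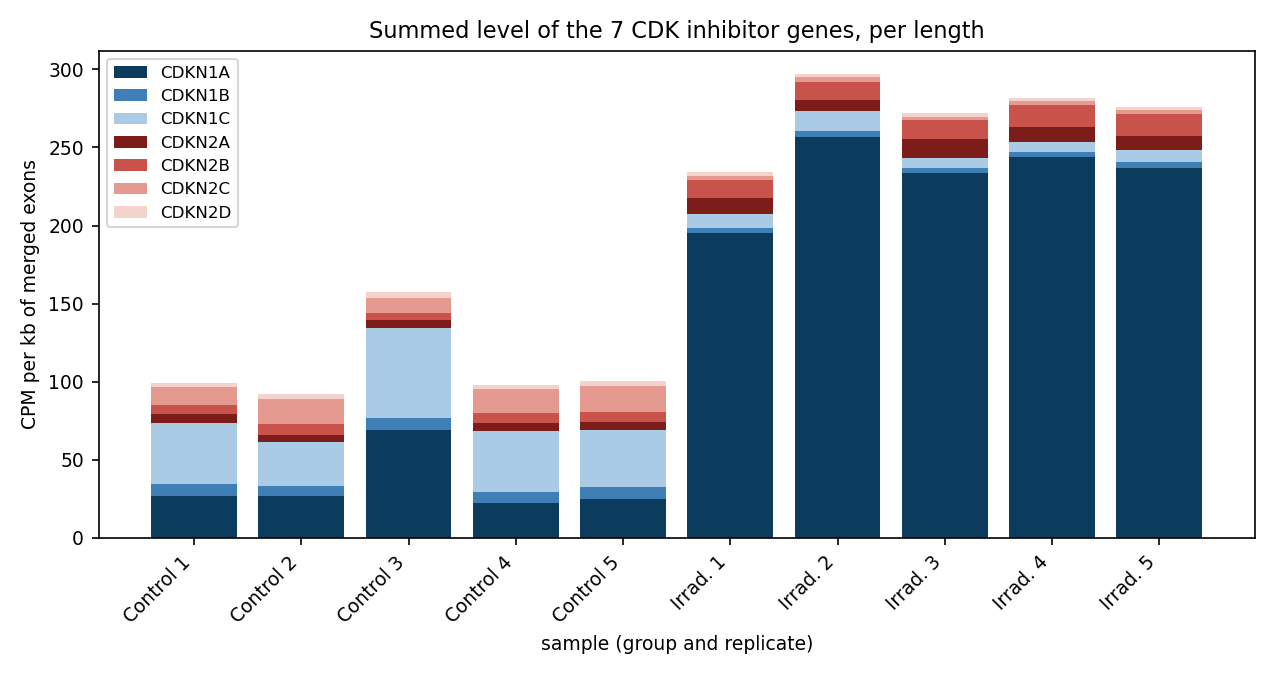
Summed level of the 7 CDK inhibitor genes in each sample, in CPM per kilobase of merged exons, stacked by gene with blue shades for CIP/KIP and red shades for INK4. The dark blue block of CDKN1A grows from 22.3 to 69.3 in controls to 195.1 to 256.5 in irradiated samples, while the red INK4 blocks add up to 23.1 to 31.3 and 23.7 to 29.0.

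The kinases and cyclins on which these inhibitors act also differed. Of 12 genes, 3 were higher, 7 were lower and 2 passed in neither direction, with a median log2 fold change of -0.48. Of all genes tested, 46.6% were called, 23.9% higher and 22.7% lower, and the list counts here and below stand beside these shares. The 3 higher genes all act in G1: CCND2 (cyclin D2) rose from 0.92 ± 0.33 to 8.63 ± 5.11 CPM (SD, n = 5 per group; log2 fold change 3.14, SE 0.15, adjusted p = 1.51e-05), CCND1 (cyclin D1) from 577.9 to 1797 CPM (1.63, SE 0.18, adjusted p = 0.000344) and CDK6 from 93.0 to 212.2 CPM (1.18, SE 0.14, adjusted p = 0.000408). CDK4 and CDK2 were lower, with log2 fold changes of -0.35 and -0.60. The mitotic kinase CDK1 and its cyclins fell further, by 2.10 for CDK1, 2.06 for CCNA2, 1.23 for CCNB1 and 1.19 for CCNB2 on the log2 scale. CCND3 and CCNE1 were at -0.17 and -0.36 and did not pass the test, but both passed without control replicate 3, at -0.22 and -0.51. CCNE2, at -0.61, did not pass without replicate 2, 4 or 5 (-0.48 to -0.54).

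Among 14 activators and other regulators of the kinases, 1 was higher and 7 were lower (median -0.21). CDKN3, a phosphatase that acts on CDK2 and is no member of either inhibitor family, had a log2 fold change of -2.22. CDC25C, the phosphatase that switches CDK1 on, was at -2.14, PKMYT1, the kinase that holds CDK1 off, at -1.99, and the phosphatase CDC25B at -0.95. CDK7, the kinase that activates other CDKs, was the 1 higher gene, at 0.26. Of 19 genes of the RB, E2F and DREAM group, 0 were higher and 8 were lower (median -0.08), and the share called, 42.1%, was near the 46.6% of all genes. The lower genes included the S-phase and mitotic regulators MYBL2 (-2.27), E2F2 (-1.90), E2F8 (-1.85) and E2F1 (-1.25) and the RB relative RBL1 (-1.11). RB1 and RBL2 did not pass the test, at log2 fold changes of -0.06 and -0.02, and RBL2 changed sign when control replicate 3 was left out, to 0.03. E2F1 did not pass without replicate 2, 4 or 5 (-0.95, -1.16 and -1.08).

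Proliferation genes fell together: of 18, 15 were lower, 0 were higher and the median log2 fold change was -1.42. MKI67, which marks dividing cells, fell from 161.6 ± 85.4 to 24.0 ± 5.32 CPM (SD, n = 5 per group; log2 fold change -2.57, SE 0.39, adjusted p = 0.00141), and FOXM1, CDC20 and AURKB were at -2.27, -2.25 and -2.13. PCNA, the sliding clamp of replication and a p21 partner, was at -0.21 and did not pass the test, but passed at -0.57 without control replicates 1 and 3. The mean log2 CPM of the 18 genes was 4.47, 5.71, 4.401, 5.74 and 5.66 in control replicates 1 to 5, and 3.87, 3.56, 4.03, 4.03 and 3.82 in irradiated replicates 1 to 5. Control replicates 1 and 3 were therefore lower than the other controls, though above every irradiated sample.

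The same 2 controls were the lowest for CDKN2C, and control replicate 3 was the highest for CDKN1A and CDKN1C and the lowest for CDKN2B. Leaving both out gave log2 fold changes of 3.32 for CDKN1A, -1.98 for CDKN1C, 1.04 for CDKN2B and -2.47 for CDKN2C. All 7 members remained called in the same direction without control replicate 3 and without control replicates 1 and 3. The part of the proliferation level in the differences between controls was not tested.

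**Figure D4:**
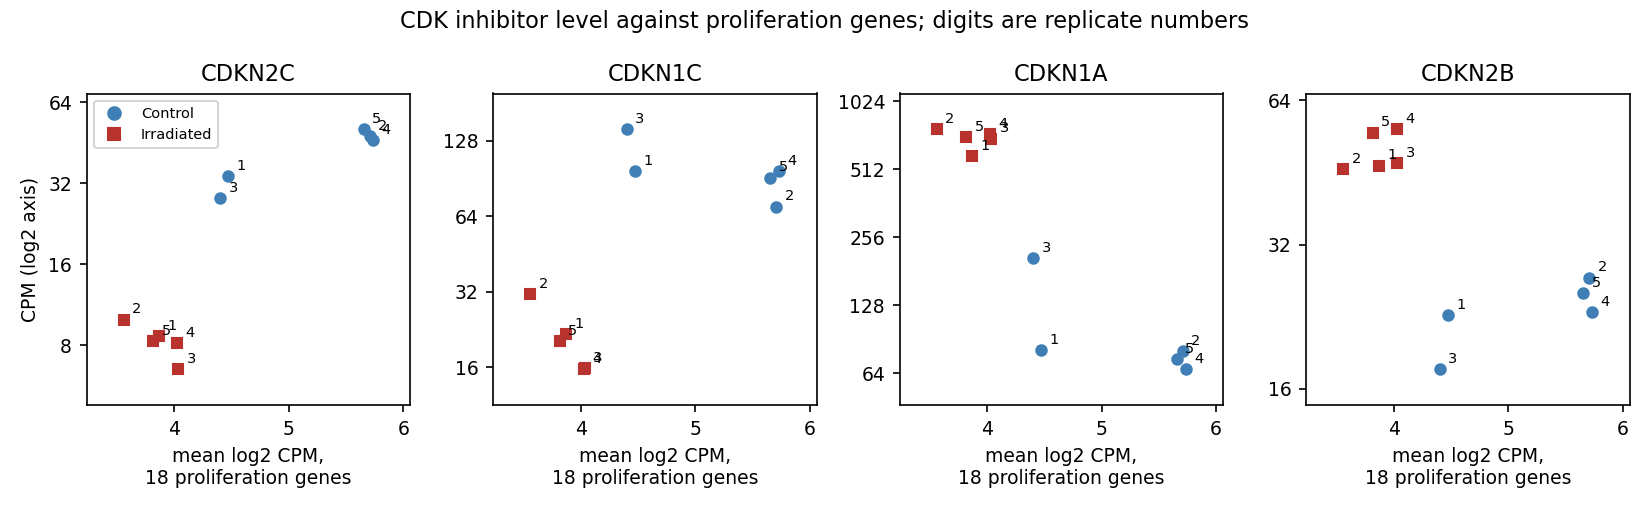
Level of CDKN2C, CDKN1C, CDKN1A and CDKN2B (CPM, log2 axis) against the mean log2 CPM of 18 proliferation genes, with 1 point per sample labelled by replicate number. Irradiated samples lie between 3.56 and 4.03 on the horizontal axis and controls between 4.401 and 5.74, with control replicates 1 and 3 on the left of their group.

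CDKN1A is induced by DNA damage, and other genes of the DNA damage response were examined as a list. Of 25 genes, 24 were tested, 21 were higher and 0 were lower, with a median log2 fold change of 1.23. The largest differences were those of EDA2R (2.38, SE 0.13, adjusted p = 2.26e-05), FAS (2.13), both receptors of the TNF receptor family, MDM2 (1.85), a ubiquitin ligase, and DDB2 (1.77), a DNA damage recognition protein. The mean log2 CPM of the 24 genes was 4.996 to 5.21 in controls and 6.03 to 6.23 in irradiated samples, and control replicate 3 was again the highest control.

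Proteins that degrade p21, p27 and p57 were listed because RNA says little of the protein level of this family. Of 11 genes of these ubiquitin ligases, 1 was higher and 6 were lower (median -0.14). DTL, which brings p21 to the CUL4 ligase in S phase, had a log2 fold change of -1.11. CKS1B and SKP2, which together recognise p27, were at -0.87 and -0.48, and UBAC1, part of another p27 ligase, was at -0.31. CUL4A was the 1 higher gene, at 0.21. DTL did not pass without replicate 2, 4 or 5 (-0.84, -1.01 and -0.93), and CUL4A did not without replicate 1 or 4 (0.21 and 0.20).

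Regulators of the INK4 locus moved in both directions. Of 18 Polycomb genes and other repressors of CDKN2A and CDKN2B, 17 were tested, 3 were higher and 8 were lower (median -0.16). EZH2, the histone H3K27 methyltransferase, fell from 26.7 ± 5.91 to 12.3 ± 1.02 CPM (SD, n = 5 per group; log2 fold change -1.10, SE 0.11, adjusted p = 0.000224), with CBX2 at -0.60 and EED at -0.42. BMI1, the Polycomb protein best known for silencing CDKN2A, was higher at 0.29, as were PHC2 (0.41) and MYC (0.49), although MYC did not pass without replicate 1, 3 or 5 (0.35, 0.44 and 0.53). Of 5 activators, 1 was higher (ETS1, 0.56) and 1 was lower (ETS2, -0.28), with a median of 0.05. The share called was 40%, against 46.6% of all genes. ETS2 did not pass without replicate 1, 4 or 5 (-0.29, -0.29 and -0.25). KDM6B, the H3K27 demethylase, was at 0.05 and did not pass the test.

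Of 13 genes of TGF-beta, SMAD and FOXO signalling, which acts on CDKN2B, CDKN1A and CDKN1B, 4 were higher and 3 were lower (median 0.04). The share called was 53.85%, against 46.6% of all genes. KLF6, a transcription factor that binds GC boxes, rose from 88.5 ± 22.7 to 242.2 ± 55.2 CPM (SD, n = 5 per group; log2 fold change 1.45, SE 0.085, adjusted p = 2.9e-05). SMAD3, which carries the TGF-beta signal to the nucleus, was at 1.10, the receptor TGFBR2 at 0.83 and FOXO1 at 0.63. The ligand TGFB2 and the shared partner SMAD4 were lower, at -1.05 and -0.30.

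**Figure D5:**
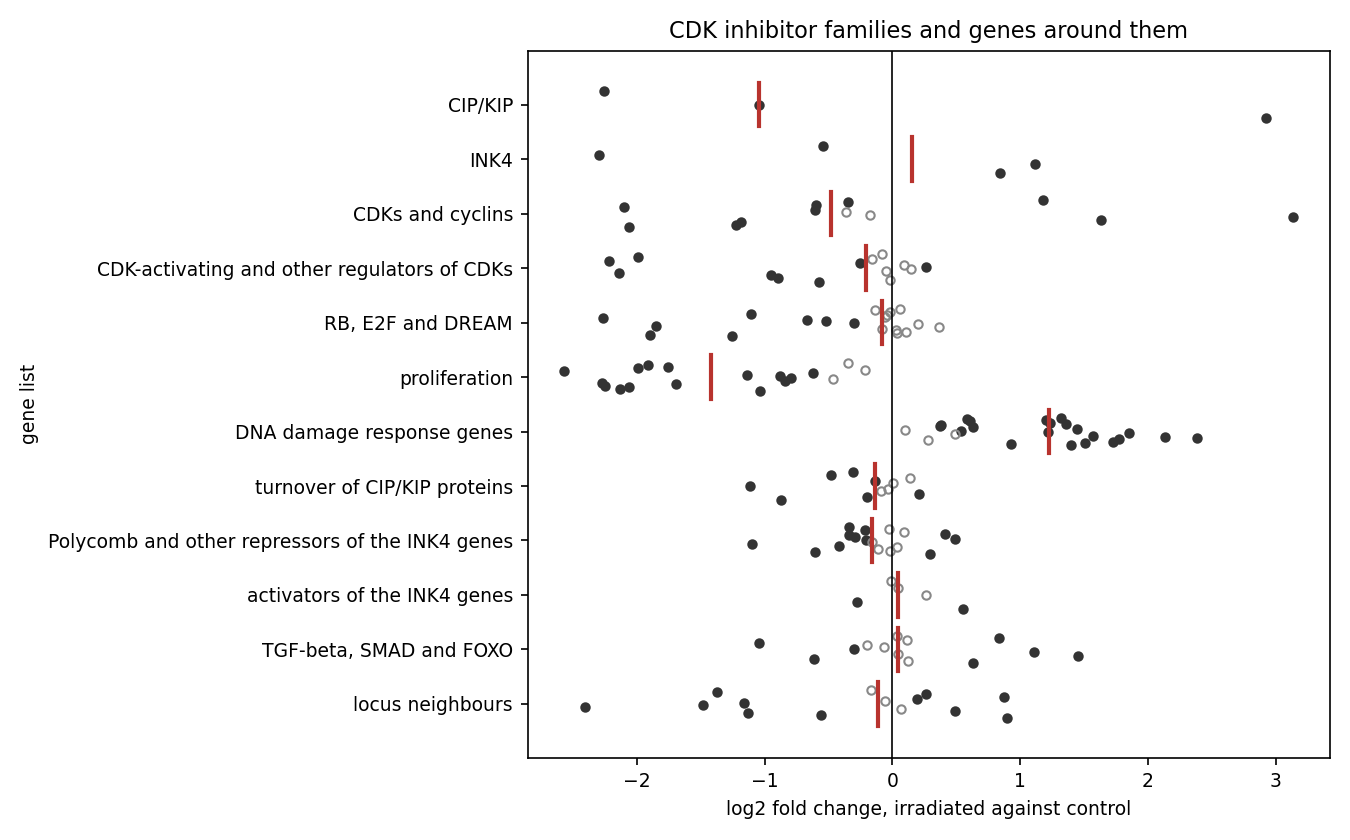
Log2 fold change of every tested gene in the CDK inhibitor families and in the lists of genes around them; filled points passed the adjusted p threshold of 0.05, open points did not, and red bars are list medians. The DNA damage response list lies to the right (median 1.23) and the proliferation list to the left (median -1.42), while both inhibitor families lie on both sides of 0.

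Genes beside the members were compared with them at each locus. Of the neighbours of CDKN1A, SRSF3 was at a log2 fold change of -0.17 and did not pass the test, but passed at -0.28 without control replicate 3, and PANDAR, RAB44 and CPNE5 were under 200 counts. On chromosome 9 the antisense RNA CDKN2B-AS1 (ANRIL), which overlaps CDKN2A and CDKN2B, moved against both of them, from 1.31 ± 0.22 to 0.60 ± 0.11 CPM (SD, n = 5 per group; log2 fold change -1.13, SE 0.16, adjusted p = 0.000899). MTAP, 30.1 kb from CDKN2A, was at 0.20, and DMRTA1, 437.5 kb from CDKN2B, at 0.49, so that both lay above 0 by less than CDKN2A and CDKN2B. The log2 ratio of CDKN2B to MTAP went from -0.18 ± 0.28 in controls to 0.75 ± 0.085 after irradiation, and that of CDKN2A to CDKN2B was -0.17 ± 0.38 and -0.44 ± 0.32 (SD, n = 5 per group). The CDKN2A to CDKN2B ratio was lower in the irradiated sample of 5 of 5 pairs, with differences of -0.48 to -0.04 (mean -0.27, SD 0.16). MTAP lost its call in 8 of 14 alternatives, among them those without replicate 1 (0.13), 4 (0.21) or 5 (0.22).

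On chromosome 11 the imprinted neighbours of CDKN1C did not all move with it. KCNQ1, 34.11 kb away, and KCNQ1OT1, the paternally expressed RNA that silences the region on its own chromosome copy, were lower, at log2 fold changes of -1.48 and -1.16. KCNQ1OT1 lies inside the span of KCNQ1 on the other strand, and the counts were treated as unstranded. Reads from KCNQ1 introns could therefore be counted as KCNQ1OT1, here and in the ratio below, and their part was not tested. PHLDA2 and SLC22A18, which like CDKN1C are expressed from the maternal copy, were higher, at 0.88 and 0.26, and did not pass without replicate 1 (0.79 for PHLDA2) or without replicate 4 (0.27 for SLC22A18). The log2 ratio of CDKN1C to KCNQ1OT1 went from 0.31 ± 0.57 in controls to -0.78 ± 0.42 after irradiation (SD, n = 5 per group). Around CDKN1B, GPR19 was lower (-2.41, on 231 counts over all samples) and APOLD1 was lower (-0.56, and -0.48 and not called without replicate 5). FAF1, the neighbour of CDKN2C, was at 0.07 and did not pass the test. Near CDKN2D, AP1M2 was higher (0.90) and SLC44A2 lower (-1.37), while KRI1, the closest at 0.43 kb, was at -0.06 and did not pass the test. In all, 14 of 17 listed neighbours were tested, and 5 were higher and 6 lower.

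Likeness of pattern was measured as Pearson's r of log2 CPM with each member, over 12826 genes with a mean of at least 1 log2 CPM. It is a description only: over the 10 samples it mostly carries the difference between groups, and the samples share their depth and scaling. The most similar genes over all 10 samples were ZMAT3, which is also in the DNA damage response list, for CDKN1A (r = 0.990), FMR1 for CDKN1B (0.996) and TKT for CDKN1C (0.993). For the INK4 genes they were RHOC for CDKN2A (0.994), ZNF578 for CDKN2B (0.992), ARRB2 for CDKN2C (0.994) and CLPP for CDKN2D (0.964).

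Over deviations from the group means, which leave the group difference out, CDKN1A was closest to FNIP2 (r = 0.990), DUSP22 (0.988) and PXDC1 (0.987), none of which was called. Without control replicate 3 these fell to 0.876, 0.867 and 0.819, so that much of the likeness rested on that sample. CDKN2A had the same 3 genes by both measures, RHOC, LINC03033 and SLC1A1, at 0.981, 0.969 and 0.951 over deviations and 0.985, 0.974 and 0.971 without control replicate 3. CDKN2C was closest to CCP110 (0.987, and 0.985 without control replicate 3), CDKN2B to MON1B (0.972), CDKN1B to C2orf68 (0.934), CDKN1C to P3H2 (0.931) and CDKN2D to ISYNA1 (0.971). When only library size was scaled, 13 of the 21 genes named by deviations and 11 of the 21 named over all samples were named again.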

How the data were processed

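RNA-seq was performed on poly-A RNA of 5 irradiated and 5 control samples. The authors trimmed adapters and used STAR on GRCh38 for both alignment and counting on GENCODE genes, and the deposited values are raw counts per gene, with no normalisation or filter. The annotation release is not given in the sources used here. The library kit is TruSeq RNA v2 in the labels and NEBNext Ultra II in the methods. Symbols were found for 61369 of 61587 genes. Of protein-coding genes covered in full by opposite-strand exons, 17 of 17 had 0 counts in every sample, compared with 10.6% of 12822 uncovered ones, and the counts were treated as unstranded. Depth was 66269311 to 131555873 counts per sample. The spread between replicates sets the precision for the members, and for CDKN2D, with the fewest counts, the part of counting noise was not tested. Chi-square per gene between replicates was 6.83 to 163.1, above sampling noise for each pair of a group. Replicates 4 and 5 were the most alike in both groups, at 11.7 in controls and 6.83 in irradiated samples. Other pairs were at 42.2 to 163.1 in controls and 30.9 to 71.3 in irradiated samples. The 5 replicates may therefore not be equally independent, and the reason was not tested.

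Genes summing to at least 200 counts were tested in R 4.3.3 with edgeR 4.0.16 (glmQLFit and glmQLFTest, TMM factors 0.915 to 1.06), with replicate number as a block as in the study's model, and Benjamini-Hochberg adjustment over all 19006 genes at 0.05. SE is the log2 fold change over the square root of F. The numbers were taken to pair samples because deviations from the group means correlated at 0.22 to 0.51 for each same-numbered pair (-0.35 to 0.32 for other pairs). The highest of the other pairs joined replicates 4 and 5, at 0.30 and 0.32, above the 0.22 of replicate 2. Scripts were tested on simulated data. Alternatives were DESeq2 1.42.0, limma-voom (limma 3.58.1), upper-quartile and library-size scaling, a minimum of 1 count, filterByExpr, no replicate block and samples left out; MANE Select lengths were chosen after seeing the data. Coordinates and lengths come from GENCODE 44 and promoters from RefSeq. Adding the 50 bases after the start, not printed, left the number of member windows with each motif as it was.

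Members and lists were chosen with earlier results of these data known, so counts over them are descriptions and no set test was run. Results of some list genes are not reported here. Named are all members, in each list first the 4 called genes with the largest change, other list genes where their role is described, and for each member the closest of the 3 genes found by each measure of likeness. Plots used Python 3.11.15 and matplotlib 3.10.9.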

Additional observations from a re-analysis of the deposited data

Results flagged for a closer look

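CDKN1A in control replicate 3, at 207.6 CPM, lay far from the other 4 controls (66.7 to 80.9 CPM), with a gap to the nearest of 89.95% of the range of the group. The mean log2 CPM of 24 DNA damage response genes in the same sample was 5.205, against 4.996 to 5.031 in the other controls, with a gap of 83.1% of the range. Such gaps were looked for in 22 groups of 5 values, where chance gives about 1.1, and 2 were found, both in control replicate 3. CDKN1A is not in that list. Both values lay outside the range of the irradiated samples, on the side of the other controls.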

How the results depend on the processing

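All 7 CDK inhibitor genes kept their direction and their call in 14 of 14 alternatives. Their log2 fold changes ranged from 2.78 to 3.32 for CDKN1A, -1.12 to -0.97 for CDKN1B, -2.51 to -1.98 for CDKN1C, 0.77 to 0.89 for CDKN2A, 1.04 to 1.22 for CDKN2B, -2.47 to -2.21 for CDKN2C and -0.63 to -0.47 for CDKN2D, with adjusted p at most 0.0174, that of CDKN2D. Over all genes, 8857 were called (4550 higher, 51.4%), 9503 with library size only (37.98% higher) and 6619 to 8781 with 1 replicate number left out.

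Without the replicate block 7006 genes were called, the number of higher locus neighbours was 3 in place of 5, and no member changed its call. Higher locus neighbours were also 3 with library size only and 3 to 5 without single replicates. Library size only gave 0 higher genes in the list of CIP/KIP protein turnover and 5 lower in that of TGF-beta, SMAD and FOXO. With a minimum of 1 count the turnover list again had 0 higher genes. Without single replicates it had 0 to 2, the activators of the INK4 genes had 1 to 2 higher and 0 to 1 lower, and the regulators of CDKs had 1 to 2 higher. Without control replicate 3 each of these 3 lists had 2 higher genes, and without control replicates 1 and 3 the activators had 3 higher and 0 lower. Reversed signs were those of FAF1 (-0.0085 with library size only) and RBL2 (-0.0343 to 0.0271 without single replicates, 0.0271 without control replicate 3 and 0.0397 without control replicates 1 and 3). The causes were not tested.

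Apart from CDKN2D, each member had at least 602 counts in every sample. CDKN2D had 196 to 660, and the part of counting noise in its spread was not tested. With 5 samples a group the spread between replicates limits the precision, and dropping control replicate 3 alone leaves its irradiated partner uninformative under the block. Gene counts show neither p16 apart from p14ARF nor any protein level.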
